A study of Mus musculus with 6 samples.

Results

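The 9 genes described here, Dusp1, Dusp2, Dusp4, Dusp5, Dusp6, Dusp7, Dusp8, Dusp10 and Dusp16, encode dual-specificity MAP kinase phosphatases (MKPs). They were taken by gene symbol from a table of 54532 mouse genes, in which each of the 9 symbols stood in a single row. All 9 were among the 8882 genes that had a mean of at least 1 FPKM (fragments per kilobase of gene model and scaled to library size, a level comparable between genes) over the libraries and were therefore tested. RNA sequencing had been performed on macrophages of C57BL/6J mice, either wild type (WT, replicates 1, 2 and 3) or lacking progranulin (PGRN KO, replicates 4, 5 and 6), a secreted glycoprotein encoded by Grn. Both groups had been challenged in culture with Candida albicans for 6 hours, at 1 fungal cell per macrophage and 2000000 macrophages per well. No unchallenged library was analysed here, so that the values compare the genotypes during challenge. According to the labels the cells came from the peritoneal cavity, whereas the text of the study describes bone marrow-derived macrophages and another ratio of fungus to cells. The labels were followed. Neither source states that the replicates came from separate mice, so the p-values measure the spread between these libraries, which may be technical.

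MAP kinases of the ERK, JNK and p38 families are switched on by phosphorylation of a threonine and a tyrosine in their activation loop, and the MKPs switch them off by removing both phosphates. Many MKP genes are themselves induced by MAP kinase signalling, so that they act as negative feedback. In macrophages that meet microbial products, the MKPs are known for limiting the duration of MAP kinase activity and the output of inflammatory cytokines.

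Stretches of promoter are shown for Dusp1, Dusp5, Dusp2 and Dusp16, the 4 genes with the largest differences between genotypes below, as context for those values. They are the significantly lower genes whose promoters held a match to the motifs searched. Dusp6, also significantly lower below, held no match and is not printed. RefSeq (build GRCm38.p6) gave a promoter for 8 of the 9 genes, all but Dusp4. Each line runs 5′ to 3′ on the strand of the gene, from 250 to 51 bases before the RefSeq start, so that no base of the gene models in the deposited table is included. Capitals mark matches, on either strand, to the motifs searched. The stretches are Dusp1 at chr17:26508523-26508722 (minus strand), Dusp5 at chr19:53528895-53529094 (plus strand), Dusp2 at chr2:127335909-127336108 (plus strand) and Dusp16 at chr6:134792679-134792878 (minus strand).
Dusp1: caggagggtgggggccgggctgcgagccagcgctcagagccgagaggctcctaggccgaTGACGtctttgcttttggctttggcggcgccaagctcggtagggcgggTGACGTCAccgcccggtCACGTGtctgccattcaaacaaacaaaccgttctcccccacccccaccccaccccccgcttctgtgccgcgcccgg
Dusp5: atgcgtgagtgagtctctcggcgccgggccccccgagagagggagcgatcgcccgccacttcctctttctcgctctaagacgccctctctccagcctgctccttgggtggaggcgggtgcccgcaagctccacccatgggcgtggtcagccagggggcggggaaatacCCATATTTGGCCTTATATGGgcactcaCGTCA
Dusp2: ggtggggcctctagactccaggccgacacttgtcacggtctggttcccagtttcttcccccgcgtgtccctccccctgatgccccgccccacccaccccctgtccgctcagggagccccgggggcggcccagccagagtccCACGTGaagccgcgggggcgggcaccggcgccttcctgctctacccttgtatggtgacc
Dusp16: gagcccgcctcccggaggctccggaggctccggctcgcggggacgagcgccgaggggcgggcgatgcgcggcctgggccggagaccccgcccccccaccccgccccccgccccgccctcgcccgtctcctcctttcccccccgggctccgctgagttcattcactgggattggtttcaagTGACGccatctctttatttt

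The motifs were searched in the 250 bases before the start of 32851 RefSeq promoters. The cyclic AMP response element TGACGTCA was found in the promoters of Dusp1 and Dusp8, against 1.55% of all promoters. The Dusp8 and Dusp10 windows lie inside the longer gene models of the deposited table and are not printed. The core TGACG of this element, which every full element also contains, was found in 4 of the 8 promoters (Dusp1, Dusp5, Dusp8 and Dusp16), against 17.8%. The E-box CACGTG was present in Dusp1 and Dusp2, and in 6.02% of all promoters. Dusp5 held a pair of adjacent CArG boxes, the element bound by serum response factor, at 82 to 73 and 72 to 63 bases before the start, and 1.47% of all promoters held at least 1. No match to the AP-1 site TGANTCA (6.75% of all promoters), the NF-kB site (1.21%), the ETS site CCGGAAG (6.91%), the TATA box TATAAA (12.4%) or the interferon-stimulated response element (2.98%) stood in these windows. The 8 promoters had a GC content of 56.4% to 77.2%, above the median of 52.4% over all promoters. They held 16 to 34 CG dinucleotides, against a median of 6 over all promoters. The cyclic AMP response element, its core and the E-box each contain CG, so the shares over all promoters are not a like background for them. A match describes the letters and was not tested as a binding site.

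The libraries held 15996786 to 17551619 fragments. The 3 WT libraries had 323, 337 and 325 FPKM of Grn, and the 3 PGRN KO libraries had 0.0166, 0 and 0.0167 FPKM. All 8 general macrophage markers were detected in both groups, with a summed level of 11620 to 12560 FPKM in WT against 10440 to 14380 FPKM in PGRN KO. Of these 8, Csf1r was significantly lower in PGRN KO (limma adjusted p = 0.0178, log2 fold change -0.38) and Mertk was significantly higher (limma adjusted p = 0.0064, log2 fold change 0.81). Of the 6 markers of resident peritoneal macrophages, Timd4, Selp and Alox15 had a mean under 1 FPKM, and the summed level of the list was 19.9 to 23.9 FPKM in WT against 19.8 to 24.1 FPKM in PGRN KO. Prg4 was the largest part of this sum (means of 14.2 and 12.7 FPKM). Icam2 was significantly higher in PGRN KO (limma adjusted p = 0.0091, log2 fold change 0.57), while Gata6 and Prg4 did not pass. The summed level was lower in PGRN KO for 10 neutrophil markers (60.3 to 66.8 against 32.4 to 36.1 FPKM), a sum carried by S100a8 (means of 49.98 and 23.3 FPKM) and Csf3r (12.9 and 10.2 FPKM), while the other 8 had means under 1 FPKM, among them Ly6g, Cxcr2 and Elane at 0 throughout. The sum was also lower for 5 dendritic cell markers (1.84 to 2.27 against 1.10 to 1.46 FPKM, all under a mean of 1). This came from Flt3 and Xcr1, while Zbtb46, Clec9a and Siglech had higher means in PGRN KO. The sum was higher in PGRN KO for 6 mast cell markers (2.29 to 3.19 against 9.72 to 13.99 FPKM), although Kit was lower (means of 0.345 and 0.210 FPKM). It was also higher for 5 B cell markers (at most 2.50 against at least 6.62 FPKM). For 8 mesothelial and fibroblast markers it was higher as well (1.10 to 1.18 against 2.05 to 3.69 FPKM, all under a mean of 1). Dcn, Col1a1, Col1a2 and Col3a1 carried that rise, while Msln, Upk3b and Krt19 had lower means in PGRN KO. The ranges overlapped for 6 T cell markers (3.51 to 4.50 against 4.30 to 7.42 FPKM). In bulk RNA, fewer cells of a type and less RNA per cell cannot be told apart, and the part of these markers in the values below was not tested. PGRN KO replicate 6 stood apart from the other PGRN KO libraries. Across the 8882 tested genes its deviation from the group mean correlated with gene length at Spearman rho -0.55, against 0.46 and 0.47 in PGRN KO replicates 4 and 5, a description across genes of libraries that share a group mean. For the MKP genes, values without this library are given where it changed a call or moved a fold change.

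To determine how PGRN loss changed the MKP transcripts, the genotypes were compared on the log2(FPKM + 1) scale. Of the 9 genes, 5 were significantly lower in PGRN KO (Dusp1, Dusp2, Dusp5, Dusp6 and Dusp16) and none was significantly higher, at a limma adjusted p under 0.05. Over all tested genes 13.8% passed in the lower direction, 10.4% in the higher direction and 24.2% in either. The log2 fold change was below 0 for all 9 genes, against 53.3% of tested genes, and its median was -0.42 against -0.03 over all tested genes. All 3 WT libraries lay above all 3 PGRN KO libraries for 7 of the 9 genes (all but Dusp4 and Dusp8), whereas this held for 27.6% of tested genes, and for 48.8% in either direction. The 4 largest differences, those of Dusp5, Dusp16, Dusp2 and Dusp1, were exceeded by a larger fall in 3.87% to 5.24% of tested genes. These 4 genes had mean levels above those of 78.0% to 98.0% of tested genes, and the scale understates falls of low genes, which favours them in this ranking. Among genes with a mean of at least 5 FPKM, 953 of 4855 were called lower, and 5 of the 7 MKP genes tested there. Without PGRN KO replicate 6, 6 of the 9 genes passed, against 25.1% of tested genes that were called lower in that fit. Only Dusp5 passed without WT replicate 1 or without WT replicate 2, where 4.3% and 4.99% of tested genes were called lower.

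**Figure D1:**
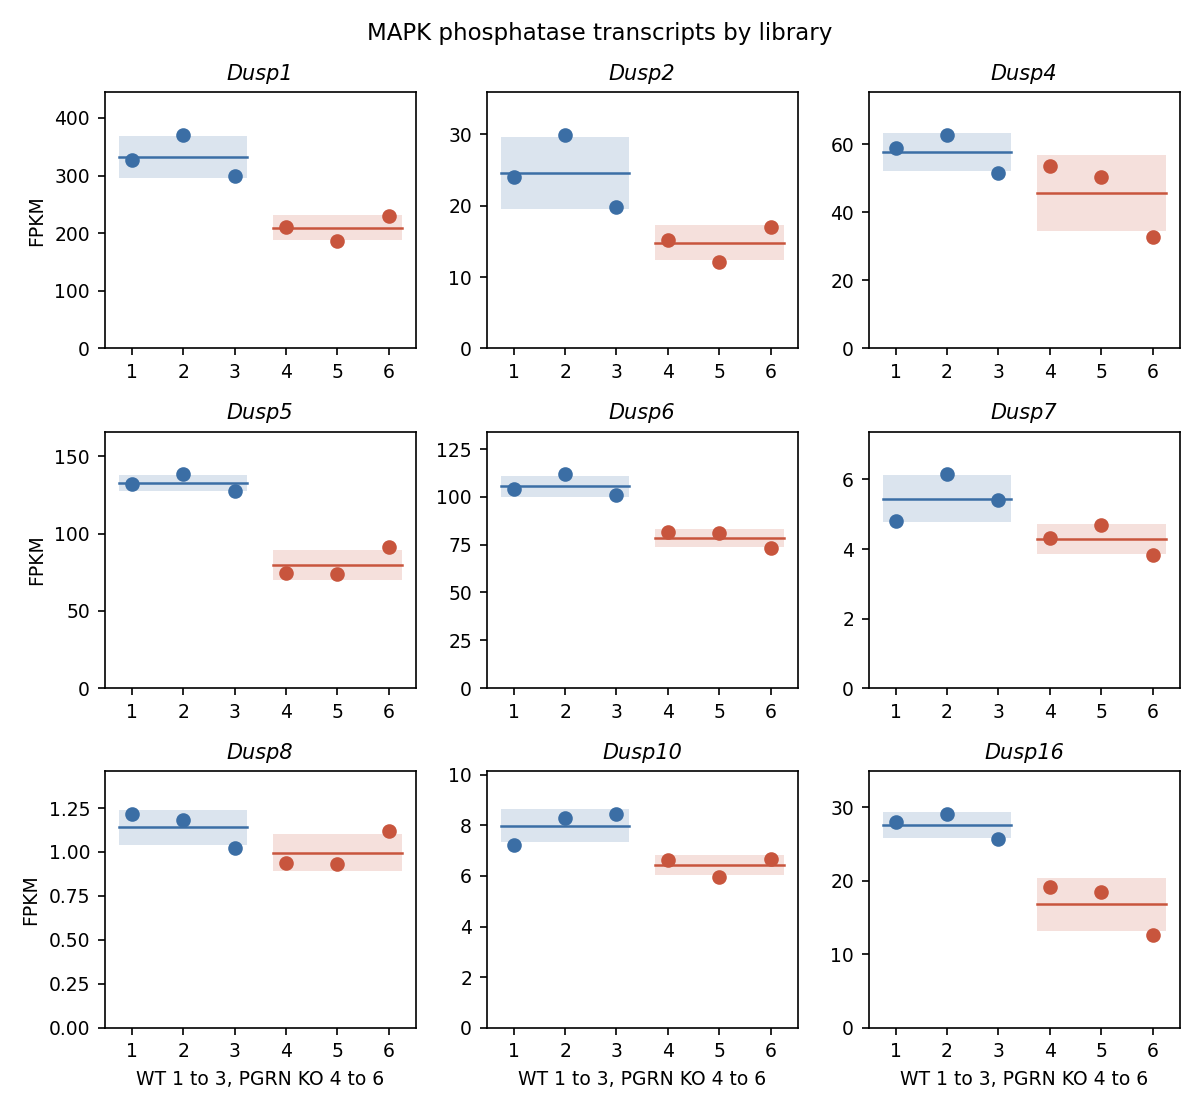
FPKM of each MKP gene (y axis, from 0) in each library (x axis), with WT replicates 1 to 3 in blue and PGRN KO replicates 4 to 6 in red. Lines are group means and bands are 1 SD (n = 3). The groups are separate in 7 of the 9 panels and overlap for Dusp4 and Dusp8.

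The levels covered a wide range, and their order was nearly the same in both genotypes. Dusp1 was the most abundant MKP transcript, with a mean of 332.5 ± 36.1 FPKM in WT against 209.4 ± 21.3 FPKM after PGRN loss (SD, n = 3 each), and its mean over the 6 libraries was above that of 98.0% of tested genes. Dusp5, Dusp6 and Dusp4 followed, then Dusp16, Dusp2, Dusp10, Dusp7 and Dusp8. The ranges of neighbours in this order were separate in WT except for Dusp16 and Dusp2. In PGRN KO the ranges of Dusp5 and Dusp6 overlapped as well, at 73.7 to 91.1 and 73.0 to 81.5 FPKM. Dusp8 was near the filter, at a mean of 1.07 FPKM, a level above that of 1.84% of tested genes.

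Added together, the 9 transcripts amounted to 687, 758 and 640 FPKM in the 3 WT libraries and to 467, 435 and 468 FPKM in PGRN KO replicates 4, 5 and 6. The summed level was thus higher in every WT library than in any PGRN KO library, and in PGRN KO it was 65.67% of the WT level (exact two-sided permutation p = 0.1, the smallest that 3 against 3 libraries allow). Dusp1 supplied 47.8% ± 1.07 of the sum in WT and 45.8% ± 3.05 in PGRN KO, and Dusp5 supplied 19.1% ± 0.872 and 17.4% ± 1.83 (SD, n = 3 each). These 2 shares differed between genotypes by no more than the spread between libraries. The shares of Dusp10 (1.05% to 1.32% in WT, 1.37% to 1.42% in PGRN KO) and Dusp8 (0.156% to 0.177% against 0.201% to 0.239%) were higher in every PGRN KO library than in any WT library. The share of Dusp4 was 8.06% to 8.57% in WT, 11.5% and 11.6% in PGRN KO replicates 4 and 5, and 7.01% in PGRN KO replicate 6.

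The nuclear, inducible MKPs (Dusp1, Dusp2, Dusp4 and Dusp5) were examined first. Of these 4 genes, 3 were significantly lower in PGRN KO and the median log2 fold change was -0.68. Dusp1 (ENSMUSG00000024190, chromosome 17, 26505590 to 26508519, minus strand) encodes MKP-1, an immediate-early phosphatase that acts on p38, JNK and ERK and restrains cytokine production in macrophages. Its level was 327, 371 and 299 FPKM in WT replicates 1, 2 and 3, and 211, 187 and 230 FPKM in PGRN KO replicates 4, 5 and 6. The lowest WT library was 1.30 times the highest PGRN KO library. Dusp1 fell to 62.98% of the WT mean, at a limma adjusted p of 0.0119 for a log2 fold change of -0.66 ± 0.12 (SE), on 9562 to 14795 fragments per library. The limma adjusted p was 0.0617 without WT replicate 1 and 0.0546 without WT replicate 2, at log2 fold changes of -0.67 and -0.58, and 0.00336 without PGRN KO replicate 6.

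Dusp5 (ENSMUSG00000034765, chromosome 19, 53529109 to 53542431, plus strand) encodes a nuclear phosphatase that acts on ERK and anchors it in the nucleus. It was measured at 132, 138 and 128 FPKM in the WT libraries and at 74.3, 73.7 and 91.1 FPKM in the PGRN KO libraries. The groups did not overlap, and PGRN KO replicate 6 was the PGRN KO library nearest to WT. The fall, to 60.04% of the WT mean, gave a log2 fold change of -0.74 ± 0.11 (SE) and the smallest limma adjusted p of the 9 genes, 0.00594. Dusp5 passed the threshold under all 14 alternatives, at log2 fold changes of -0.83 to -0.68. In the GENCODE annotation of GRCm38, 22.1% of its exonic bases lie under a gene on the opposite strand, AC137853.2, which was not analysed here. The sources used here do not say whether fragments were counted by strand, so that reads of both genes may be included.

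Dusp2 (ENSMUSG00000027368, chromosome 2, 127336159 to 127338376, plus strand) encodes PAC-1, a nuclear phosphatase of activated leukocytes. The WT libraries stood at 24.1, 29.9 and 19.8 FPKM, and PGRN KO replicates 4, 5 and 6 at 15.2, 12.2 and 17.0 FPKM. The groups were separate, but the WT libraries were widely spread, and the lowest WT library was 1.17 times the highest PGRN KO library. Dusp2 was significantly lower in PGRN KO, at 60.06% of the WT mean (limma adjusted p = 0.0316, log2 fold change -0.69 ± 0.18 SE). The call was lost when any of 4 libraries was left out. The limma adjusted p was 0.103 when either WT replicate 1 or WT replicate 2 was left out, and 0.0659 or 0.0756 when PGRN KO replicate 4 or 5 was left out, at log2 fold changes of -0.72 to -0.55. It held at 0.0409 by limma without WT replicate 3 and at 0.0156 by limma without PGRN KO replicate 6.

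Dusp4 (ENSMUSG00000031530, chromosome 8, 34807297 to 34819894, plus strand) encodes MKP-2, the nearest relative of MKP-1 among the nuclear members. Its WT values were 58.9, 62.8 and 51.6 FPKM, and its PGRN KO values were 53.6, 50.4 and 32.8 FPKM. PGRN KO replicate 4 lay within the WT range and PGRN KO replicate 6 lay far below every other library. The difference did not pass the threshold (log2 fold change -0.36, 95% interval -0.81 to 0.09, limma adjusted p = 0.205). Without PGRN KO replicate 6 the log2 fold change was -0.14 with a limma adjusted p of 0.245, a smaller difference than with that library.

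**Figure D2:**
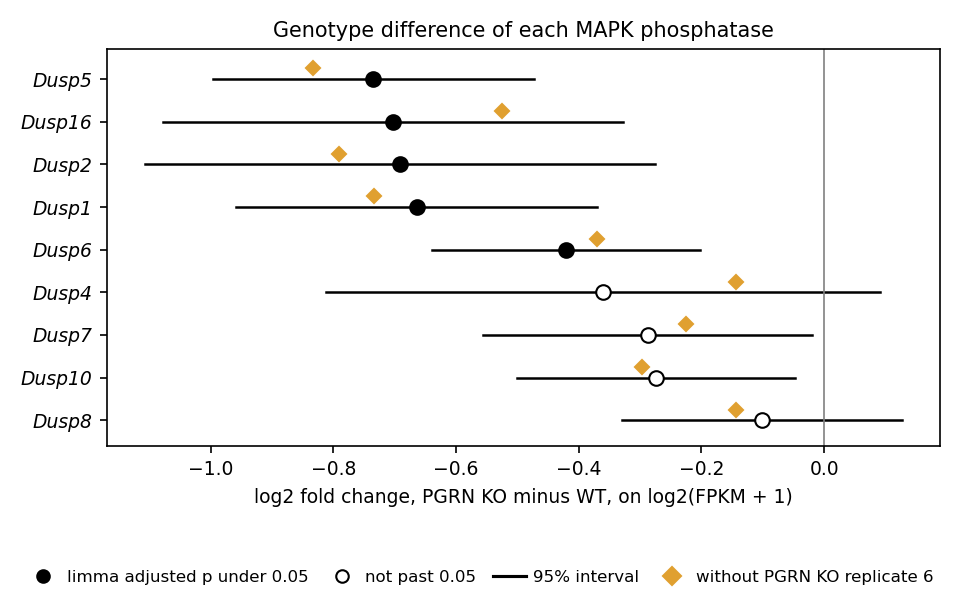
Log2 fold change of each MKP gene on the log2(FPKM + 1) scale (x axis, PGRN KO minus WT, 3 libraries each), ordered by size. Circles are filled where the limma adjusted p was under 0.05, bars are 95% intervals, and diamonds are the fold change without PGRN KO replicate 6, which for Dusp4 lies at -0.14 in place of -0.36.

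Of the cytoplasmic, ERK-selective MKPs, Dusp6 was significantly lower in PGRN KO and Dusp7 did not pass. Dusp6 (ENSMUSG00000019960, chromosome 10, 99263231 to 99267489, plus strand) encodes MKP-3, which is induced by ERK activity and inactivates ERK in the cytoplasm. WT replicates 1, 2 and 3 held 104, 112 and 101 FPKM of Dusp6, against 81.5, 81.0 and 73.0 FPKM for PGRN KO replicates 4, 5 and 6. The libraries within each genotype were close together and the groups did not overlap. At 74.48% of the WT mean, Dusp6 was significantly lower in PGRN KO (log2 fold change -0.42 ± 0.09 SE, limma adjusted p = 0.0196). On a TPM scale, where every library has the same sum, the limma adjusted p was 0.0892, and with quantile normalization it was 0.0593, both at a log2 fold change of -0.37. Leaving out WT replicates 1, 2 or 3 gave limma adjusted p-values of 0.0939, 0.0932 and 0.0613.

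Dusp7 (ENSMUSG00000053716, chromosome 9, 106368632 to 106375724, plus strand) encodes a close relative of MKP-3. Its WT levels were 4.81, 6.14 and 5.40 FPKM, and the PGRN KO levels were 4.32, 4.69 and 3.83 FPKM. All WT libraries were higher, but WT replicate 1 was only 1.02 times PGRN KO replicate 5. The log2 fold change of -0.29 (95% interval -0.56 to -0.02) had a limma adjusted p of 0.109 and did not pass. Dusp7 was counted from 222 to 327 fragments per library.

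Of the JNK- and p38-selective MKPs (Dusp8, Dusp10 and Dusp16), only Dusp16 passed. Dusp16 (ENSMUSG00000030203, chromosome 6, 134715468 to 134792625, minus strand) encodes MKP-7, a phosphatase directed mainly at JNK. Levels of 28.0, 29.1 and 25.7 FPKM were measured in the WT libraries, compared with 19.2, 18.5 and 12.7 FPKM in PGRN KO replicates 4, 5 and 6. The groups did not overlap and PGRN KO replicate 6 was the lowest library. Dusp16 was significantly lower in PGRN KO, at 60.9% of the WT mean (log2 fold change -0.70 ± 0.16 SE, limma adjusted p = 0.0214). The log2 fold change was -0.52 without PGRN KO replicate 6, with a limma adjusted p of 0.00246. The call was lost on a TPM scale (limma adjusted p = 0.0692, log2 fold change -0.65), with no filter on low values (0.0632 by limma) and without WT replicates 1, 2 or 3 (0.0846, 0.0875 and 0.0612 by limma).

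Dusp10 (ENSMUSG00000039384, chromosome 1, 184013302 to 184075636, plus strand) encodes MKP-5, which acts on JNK and p38 and is known for roles in innate and adaptive immunity. Values of 7.23, 8.27 and 8.43 FPKM were found in WT, compared with 6.64, 5.96 and 6.66 FPKM in PGRN KO. The groups were separate, with a ratio of 1.09 between the nearest libraries. The log2 fold change of -0.27 (95% interval -0.50 to -0.05) had a limma adjusted p of 0.079 and missed the threshold. Without PGRN KO replicate 6 it was -0.30 and passed, at a limma adjusted p of 0.0349.

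Dusp8 (ENSMUSG00000037887, chromosome 7, 142079490 to 142095843, minus strand) encodes a JNK- and p38-directed phosphatase best known from brain and heart. The WT libraries had 1.22, 1.18 and 1.02 FPKM, compared with 0.937, 0.933 and 1.12 FPKM in PGRN KO, from 79 to 99 fragments per library. PGRN KO replicate 6 lay within the WT range. The log2 fold change was -0.10 (95% interval -0.33 to 0.13, limma adjusted p = 0.472), on a scale that understates changes at levels this low, and with a pseudocount of 0.1 it was -0.18. No difference was detectable at this depth.

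An exact two-sided permutation test of each gene on its own gave p = 0.1, the smallest possible with these group sizes, for the 7 genes with separate groups and p = 0.2 for Dusp4 and Dusp8.

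The genes also varied among themselves within each genotype. In WT, replicate 2 was the highest library for 7 of the 9 genes and replicate 3 the lowest for 7. The library size used for the deposited values was 0.974, 0.925 and 1.03 times the counted fragments in WT replicates 1, 2 and 3. In PGRN KO replicates 4, 5 and 6 it was 1.05, 1.09 and 0.9995 times. A larger library size gives lower FPKM for the same fragments, so this scaling also enters the comparison of the genotypes. The part of this scaling in the order of the WT libraries was not tested. The TPM scale and quantile normalization named above were applied to the genotype differences only. In PGRN KO, replicate 6 was the highest library for 5 genes (Dusp1, Dusp2, Dusp5, Dusp8 and Dusp10) and the lowest for 4 (Dusp4, Dusp6, Dusp7 and Dusp16). Its deviation from the group mean on the log2(FPKM + 1) scale was 0.20 for both Dusp2 and Dusp5 and was -0.43 for Dusp4 and -0.36 for Dusp16. The deposited gene length was 2003 bases for Dusp2, 2473 for Dusp5, 2740 for Dusp4 and 7798 for Dusp16. For Dusp1 (2697 bases), Dusp8 (4870) and Dusp10 (3042) the deviation was 0.14, 0.087 and 0.047. For Dusp6 (3132 bases) and Dusp7 (3356) it was -0.10 and -0.13, so the deviations did not follow length in every gene.

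**Figure D3:**
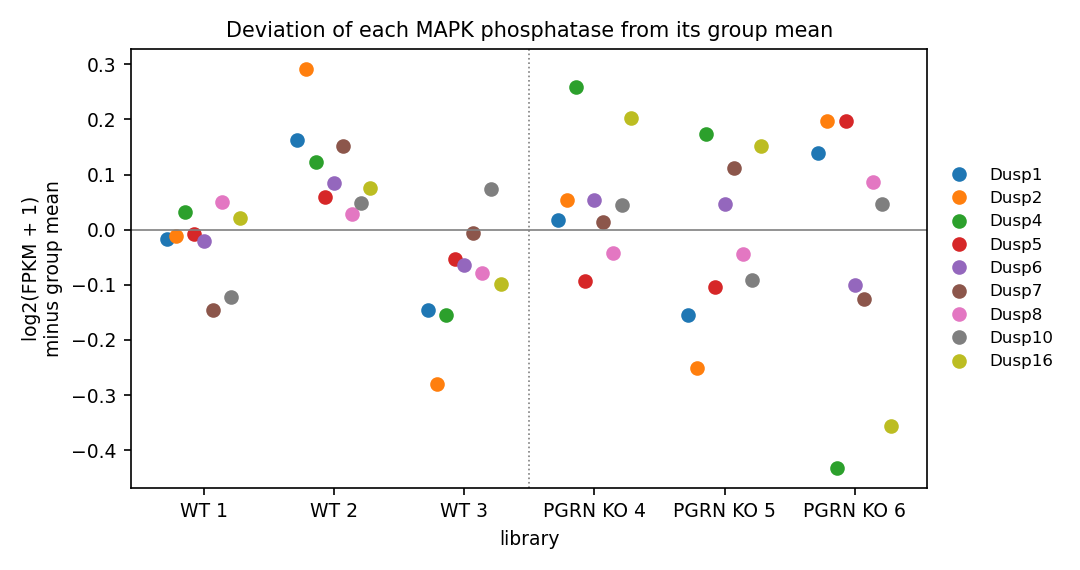
Deviation of each MKP gene from its own group mean on the log2(FPKM + 1) scale (y axis) in each library (x axis), with 1 colour per gene. The 9 genes are spread most widely in PGRN KO replicate 6, from -0.43 for Dusp4 to 0.20 for Dusp2 and Dusp5, whereas 8 of the 9 lie below 0 in WT replicate 3.

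**Figure D4:**
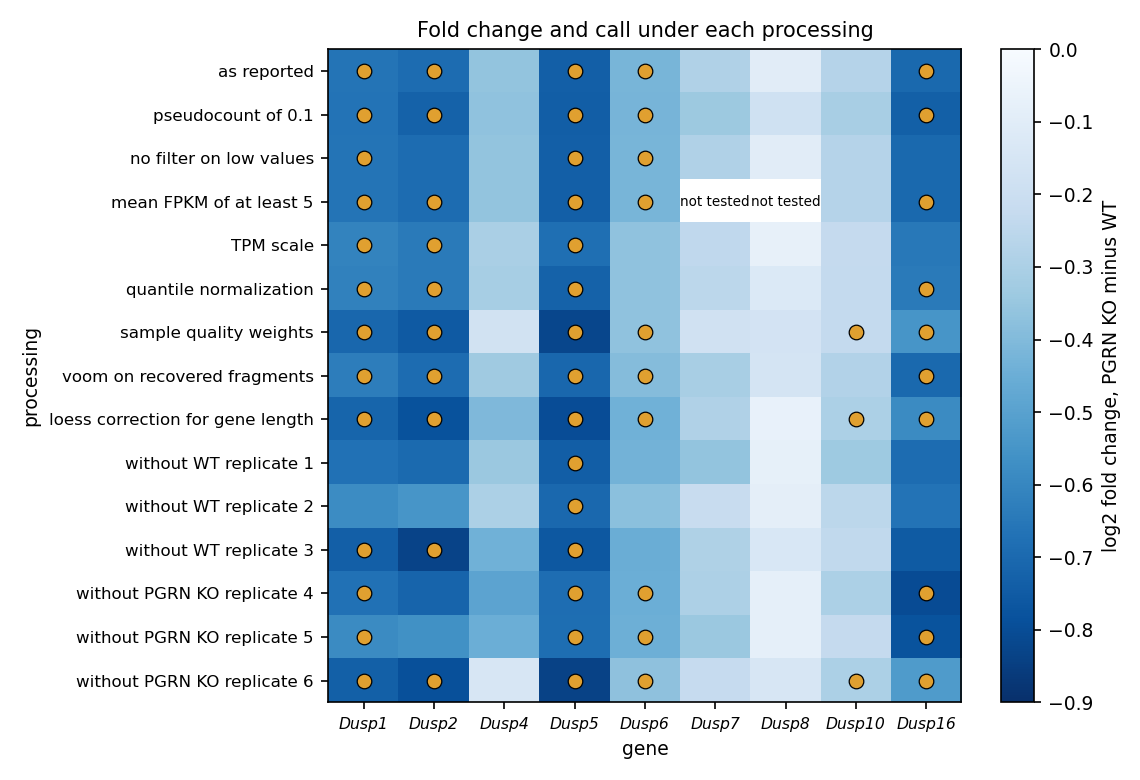
Log2 fold change of each MKP gene (columns, colour scale, PGRN KO minus WT) under the reported processing and each of the 14 alternatives (rows), where voom values are on a log2 scale of fragments relative to library size. Yellow points mark a limma adjusted p under 0.05, which Dusp5 has in every row, Dusp4, Dusp7 and Dusp8 in none, and Dusp10 in 3 alternatives.

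For each MKP that passed, the tested protein-coding genes with the most similar profile over the 6 libraries were listed. Similarity was the Pearson r of log2(FPKM + 1), among 7782 genes, and it is a description only, since the libraries fall into 2 genotypes and any gene that differs by genotype is similar by that alone. The nearest profiles to Dusp1 were those of Ccr7 (r = 0.999), which encodes a chemokine receptor of migrating leukocytes, Mapkapk2 (r = 0.997), which encodes a kinase activated by p38, and Icam1 (r = 0.996), which encodes an adhesion molecule. Sdc4, Rabgef1 and Cxcl2 lay nearest to Dusp2 (r = 0.998, 0.992 and 0.990). Cdca4, Slc2a1 and Rab7 were nearest to Dusp5, each with r = 0.999. Sept7, Hnrnph1 and Nlrc4 had the profiles closest to Dusp6 (r = 0.999, 0.998 and 0.997), and Cdk17, Tpp2 and Wsb1 those closest to Dusp16 (each with r = 0.999).

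To place the MKPs among related genes, other phosphatases and the kinase cascade they act on were examined in the same fit. The counts in these lists stand beside 13.8% of all tested genes called lower and 10.4% called higher. Dusp9, the remaining classical MKP, was barely expressed, with a mean of 1.06 ± 0.191 FPKM in WT against 1.03 ± 0.146 FPKM in PGRN KO (SD, n = 3 each), and a limma adjusted p of 0.893 at a log2 fold change of -0.02. Of 16 atypical dual-specificity phosphatases, which lack the MAP kinase-binding domain of the MKPs, 5 were tested, 1 was higher and 1 was lower, and their median log2 fold change was -0.02. Dusp28 rose from 1.25 ± 0.39 to 4.67 ± 1.63 FPKM (limma adjusted p = 0.00869 for a log2 fold change of 1.31), on 18 to 146 fragments per library. Dusp3, which encodes VHR, a small phosphatase of ERK and JNK, fell from 28.3 ± 0.859 to 22.5 ± 1.66 FPKM (limma adjusted p = 0.0411 for a log2 fold change of -0.32), and 12.9% of its exonic bases lie under a gene on the opposite strand.

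Of 8 other phosphatases that act on MAP kinases, 6 were tested, 3 were significantly lower and none was higher (median log2 fold change -0.24). Ptpn7, a tyrosine phosphatase of blood cells that acts on ERK and p38, fell from 18.4 ± 1.00 to 11.35 ± 0.292 FPKM (limma adjusted p = 0.00359 for a log2 fold change of -0.65). Ppm1d and Ppm1a, which encode serine/threonine phosphatases, had log2 fold changes of -0.44 and -0.31 with limma adjusted p-values of 0.0307 and 0.0409.

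Among the substrates, 5 of 9 MAP kinase genes were tested, of which 2 were higher and 1 was lower. Mapk14, which encodes p38 alpha, rose from 2.67 ± 0.363 to 4.08 ± 0.552 FPKM (limma adjusted p = 0.0344 for a log2 fold change of 0.46). Mapk9, which encodes JNK2, rose from 2.18 ± 0.101 to 3.23 ± 0.479 FPKM (limma adjusted p = 0.0375 for a log2 fold change of 0.41). Mapk8, which encodes JNK1, fell from 8.49 ± 0.874 to 6.05 ± 0.818 FPKM (limma adjusted p = 0.0434 for a log2 fold change of -0.43). These 3 calls were near the threshold. All were lost on a TPM scale, with no filter on low values and when any of the WT libraries was left out, where the limma adjusted p was 0.0563 to 0.155. Mapk3, which encodes an ERK, did not pass, with a limma adjusted p of 0.0613 at a log2 fold change of 0.42, and without PGRN KO replicate 6 the log2 fold change was smaller, at 0.27, but passed (limma adjusted p = 0.00519).

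Upstream, 1 of 5 tested MAP2 kinase genes was significantly lower, Map2k3, which encodes a kinase that activates p38 (39.1 ± 2.52 FPKM in WT, 27.6 ± 2.36 FPKM in PGRN KO, limma adjusted p = 0.0149). Of 11 tested MAP3 kinase genes, 1 was lower, Map3k2, with a limma adjusted p of 0.0415 for a log2 fold change of -0.88, which was -0.58 without PGRN KO replicate 6 (limma adjusted p = 0.00323). Of 8 tested MAPK-activated kinases, 3 were lower and none was higher. Mknk2, a kinase of the translation factor eIF4E, fell from 42.0 ± 0.902 to 21.1 ± 0.676 FPKM (limma adjusted p = 0.00119 for a log2 fold change of -0.96). Mapkapk3 and Mapkapk2, both activated by p38, had log2 fold changes of -0.64 and -0.43 with limma adjusted p-values of 0.00504 and 0.0321.

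Genes that respond to ERK and other inhibitors of the pathway were examined last. Of 12 tested ERK response genes 7 were significantly lower and none was higher, with a median log2 fold change of -0.53, beside -0.42 for the 9 MKPs and -0.03 for all tested genes. Without PGRN KO replicate 6 the medians were -0.63 and -0.37. The 4 smallest limma adjusted p-values in this list belonged to Fos (68.3 ± 1.47 to 36.2 ± 1.30 FPKM, 0.0014), Maff (147.5 ± 7.95 to 81.2 ± 4.42 FPKM, 0.00207), Egr2 (117.6 ± 3.90 to 66.7 ± 6.38 FPKM, 0.00324) and Fosl1 (53.3 ± 2.80 to 33.8 ± 3.48 FPKM, 0.00726), all of which encode transcription factors. Of the exonic bases of Fosl1, 57.2% lie under Ccdc85b on the opposite strand. Among 7 tested feedback inhibitors of the ERK pathway other than MKPs, the log2 fold change was below 0 for all 7 (median -0.40), but only Errfi1, an inhibitor of the EGF receptor, passed, falling from 48.1 ± 2.65 to 22.7 ± 1.97 FPKM (limma adjusted p = 0.00142). Without PGRN KO replicate 6, the median was smaller in size, at -0.26, while 4 of the 7 passed, against 25.1% of tested genes called lower in that fit.

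The related genes differed in how far their calls depended on the processing. Dusp28, Ptpn7, Mapkapk3, Mknk2, Errfi1, Fos, Maff, Egr2 and Fosl1 passed under every alternative in which they were tested. Map2k3 passed under 10 alternatives, Map3k2 and Mapkapk2 under 8, Ppm1d under 7, Dusp3 under 6 and Ppm1a under 4.

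**Figure D5:**
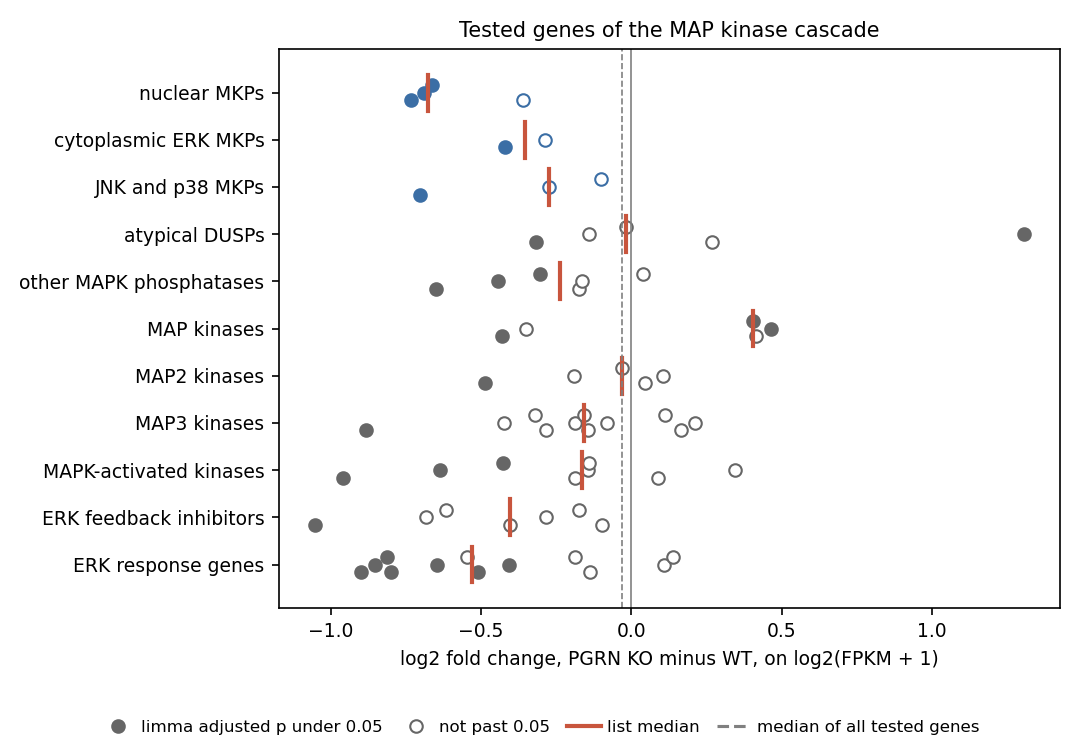
Log2 fold change on the log2(FPKM + 1) scale (x axis, PGRN KO minus WT) of every tested gene in the 3 MKP classes (blue) and 8 related lists (grey), filled where the limma adjusted p was under 0.05. Red bars are list medians, which run from -0.68 for the nuclear MKPs to 0.41 for the MAP kinases, and the dashed line is the median of all tested genes (-0.03).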

How the data were processed

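Transcripts were measured by RNA sequencing in 3 WT and 3 PGRN KO macrophage libraries (NEBNext Ultra kit), grouped by the labels' genotype. The authors deposited FPKM per gene with gene name, length and position. The submitters' processing notes name CASAVA, HISAT2 2.0.5, featureCounts 1.5.0-p3, DESeq2 1.20.0 and the builds mm10 and GRCm38, whereas the methods of the study name HISAT and HTSeq, so the counting tool is not settled. By identifier, 99.77% of the genes were found in GENCODE M21 (GRCm38), and coordinates are given on GRCm38. Because the deposited FPKM are not counts, a count model was not the main test. The main test was limma 3.58.1 (R 4.3.3) on log2(FPKM + 1), with a mean-variance trend, no covariates and two-sided tests, for genes with a mean of at least 1 FPKM, with Benjamini-Hochberg adjustment over all 8882 tested genes and a threshold of 0.05. Fold changes on this scale understate the change of low genes. Deposited FPKM times gene length were whole multiples of 1 fragment, within 0.001 of a step, for 100.0% of values above 0, which gave the depth of each library. The library size behind the authors' values was the median-ratio size factor times a constant. The limma script was tested on simulated data. The 9 genes, the gene lists and the tests were chosen with earlier results of these data known. Text names all 9 MKPs, Grn, Dusp9, the substrates Mapk3, Mapk8, Mapk9 and Mapk14 (another gene under this rule is counted but not reported here), at most the 4 called genes of smallest adjusted p per list, and the 3 protein-coding genes most correlated with each called MKP, leaving out predicted models. The 14 alternatives were a pseudocount of 0.1, no filter, a mean of at least 5 FPKM, a TPM scale, quantile normalization, sample quality weights, limma voom on the recovered fragments, a loess correction for gene length (span 0.5), and leaving out each of the 6 libraries. At most 1.51% (Dusp8) of the 31-base words of an MKP's transcripts occurred in other genes. Figures were drawn with matplotlib 3.10.9.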

Additional observations from a re-analysis of the deposited data

How the results depend on the processing

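The direction of all 9 MKP genes held under each alternative in which they were tested. With 5 of 9 genes lower as reported, 3 were lower with no filter and 3 on a TPM scale, and 1 to 6 when single libraries were left out. Of all tested genes, 1230 of 8882 were lower as reported, 763 of 22912 with no filter and 608 of 8882 on a TPM scale. When single libraries were left out, 382 to 2230 of 8882 were lower. By limma, Dusp2 was lost with no filter (log2 fold change -0.69), Dusp6 on a TPM scale (-0.37) and with quantile normalization (-0.37), and Dusp16 with no filter (-0.70) and on a TPM scale (-0.65), whereas Dusp10 was gained with sample quality weights (-0.23) and with the length correction (-0.30). With a mean of at least 5 FPKM, Dusp7 and Dusp8 were not tested. Without single libraries the log2 fold change ranged from -0.74 to -0.58 for Dusp1, -0.83 to -0.55 for Dusp2, -0.49 to -0.14 for Dusp4, -0.83 to -0.68 for Dusp5, -0.45 to -0.37 for Dusp6, -0.36 to -0.21 for Dusp7, -0.14 to -0.08 for Dusp8, -0.34 to -0.23 for Dusp10 and -0.80 to -0.52 for Dusp16. Dusp9, near 0, had a log2 fold change of -0.10 to 0.025 and changed sign without WT replicate 1 (0.0054), WT replicate 3 (0.025) or PGRN KO replicate 5 (0.017).

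Over all tested genes, 2151 passed as reported (921 higher, 1230 lower), 1366 with no filter (603 and 763) and 4225 with sample quality weights (1757 and 2468). With a mean of at least 5 FPKM 529 were higher, and on a TPM scale 608 were lower. Without single libraries the number was 713 to 3668 (331 to 1438 higher, 382 to 2230 lower), lowest without WT replicate 1 and highest without PGRN KO replicate 6. The share of higher genes among those called was 42.8% as reported and 60.3% on a TPM scale, while the 9 MKP genes had a median log2 fold change of -0.42 and of -0.37. Of the related genes, 18 were lower and 3 higher as reported, 10 were lower and 1 higher with no filter, none was higher with a mean of at least 5 FPKM, 5 were higher with sample quality weights, and 8 to 26 were lower and 1 to 4 higher without single libraries. The cause of these shifts was not tested. No paired analysis was possible because no replicate number occurs in both genotypes.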
